A study of Mus musculus with 11 samples.

Results

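The 10 genes described here encode the uptake of glucose and its breakdown to lactate: the carrier *Slc2a1*, the hexokinases *Hk1* and *Hk2*, *Pfkfb3* and *Pfkl* of the phosphofructokinase step, *Aldoa*, *Gapdh*, *Pgk1* and *Pkm* of the lower pathway, and *Ldha*. They were chosen by name from the 29307 genes of the count table, and all 10 were listed there. RNA was sequenced from liver sinusoidal endothelial cells (ECs) of 6 conventionally raised (CONV-R) and 5 germ-free (GF) mice, with 1 library per mouse. All mice were male C57BL/6J animals of 10 to 12 weeks. GF mice were kept in sterile isolators, CONV-R mice had a specific pathogen-free flora and were bred from the same colonies, and both groups ate the same autoclaved food. The cells had been enriched with CD146 beads and then sorted for CD31, CD105 and CD146. For each library, 20 ng of total RNA was amplified before sequencing. The comparison asks which of these genes differ in expression when the gut holds no microbes.

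Glycolysis splits glucose into pyruvate in the cytosol and gains ATP without oxygen, and lactate dehydrogenase turns the pyruvate into lactate. ECs in culture and in growing vessels are known to draw most of their ATP from this pathway, and PFKFB3 is known to drive it in sprouting vessels. In the liver, the sinusoidal endothelium lies between the blood coming from the gut and the hepatocytes, which store and make glucose.

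Libraries held 7922855 to 14669352 counts in CONV-R mice and 7242717 to 16164588 counts in GF mice. Levels are given as CPM, meaning counts relative to the TMM-scaled library total. The sorting markers *Pecam1*, *Eng* and *Mcam* were present in every library, and their differences did not pass the test (adjusted p = 0.112, 0.336 and 0.0764). All 12 sinusoidal endothelial markers had counts, with summed levels of 34608 to 41678 CPM in CONV-R and 33334 to 46661 CPM in GF mice. The 10 Kupffer cell markers summed to 85.1 to 223.6 CPM in CONV-R and to 192.8 to 911.6 CPM in GF mice, the highest value being that of GF mouse 6. Hepatocyte markers (10 genes) summed to 27.6 to 61.4 and 35.1 to 81.7 CPM, and those of lymphocytes and NK cells (10 genes) to 5.06 to 14.4 and 3.96 to 7.24 CPM. Neutrophil markers (5 genes) reached at most 4.79 CPM, erythroid markers (6 genes) 34.4 CPM, stellate cell markers (6 genes) 28.2 CPM and platelet markers (4 genes) 14.8 CPM in any library. No gene of these lists was at 0 in every library. CONV-R mouse 3 stood apart on the second principal component, at -48.1 against 6.01 to 17.6 for the other CONV-R mice, and GF mouse 2 had counts for 22674 genes against at most 18495 in any other library.

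Reads of 50 bases were counted, and genes of glycolysis are known for processed pseudogenes, copies of their mRNA elsewhere in the genome. Each stretch of 50 bases in the members' protein-coding transcripts was therefore looked for in all other transcripts of the GENCODE M21 annotation (GRCm38). The stretches below show what a read of these genes looks like: capitals mark a stretch that at least 1 other annotated gene holds letter for letter, and lower case one that no other holds. Exons are numbered in the longest protein-coding transcript.
Gapdh exon 4: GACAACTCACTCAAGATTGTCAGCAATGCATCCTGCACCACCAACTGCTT
Gapdh exon 3: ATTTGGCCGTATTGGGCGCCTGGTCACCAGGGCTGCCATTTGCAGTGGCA
Pgk1 exon 1: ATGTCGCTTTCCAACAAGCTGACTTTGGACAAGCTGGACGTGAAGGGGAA
Ldha exon 3: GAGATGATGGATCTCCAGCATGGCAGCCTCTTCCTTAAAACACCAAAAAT
Ldha exon 1: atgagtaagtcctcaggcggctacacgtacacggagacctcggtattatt
The exon 4 stretch of *Gapdh* (chr6:125162898-125162947, minus strand) was found in 84 other genes and its exon 3 stretch (chr6:125163387-125163436), the least copied within a single coding exon, in 10. The stretch that opens the coding sequence of *Pgk1* in exon 1 (chrX:106187251-106187300, plus strand) was found in 1 other gene. For *Ldha*, the stretch in exon 3 (chr7:46849027-46849076, plus strand) was found in 3 other genes and the start of its coding sequence in exon 1 (chr7:46847326-46847375) in none.

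All 950 coding stretches of *Gapdh* and all 1202 of *Pgk1* occurred in another gene, so that a read of 50 bases from either coding sequence could also be placed elsewhere. Over whole transcripts, which include the untranslated ends, 41.6% of *Gapdh* and 32.0% of *Pgk1* stretches were found in no other gene. *Gapdh* shared stretches with 222 genes, of which 203 were processed pseudogenes, and *Pgk1* with 5, all processed pseudogenes. The coding stretches of *Pkm* were found in no other gene in 47.1% of cases, those of *Ldha* in 71.6%, those of *Aldoa* in 83.2% and those of *Slc2a1* in 96.1%. For *Hk1*, *Hk2*, *Pfkfb3* and *Pfkl* this share was 100%. The count table listed 8 of the 203 *Gapdh* pseudogenes, with 62 counts in all 11 libraries together, and 649 of the 9940 processed pseudogenes of the annotation. Of all 222 genes that share stretches with *Gapdh*, it listed 20, with 7972 counts beside 281 for *Gapdh* itself. Those counts were not split into shared and other stretches. How reads with several possible places were counted is not given in the sources used here, and the part of shared stretches in the levels below was not tested.

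**Figure D1:**
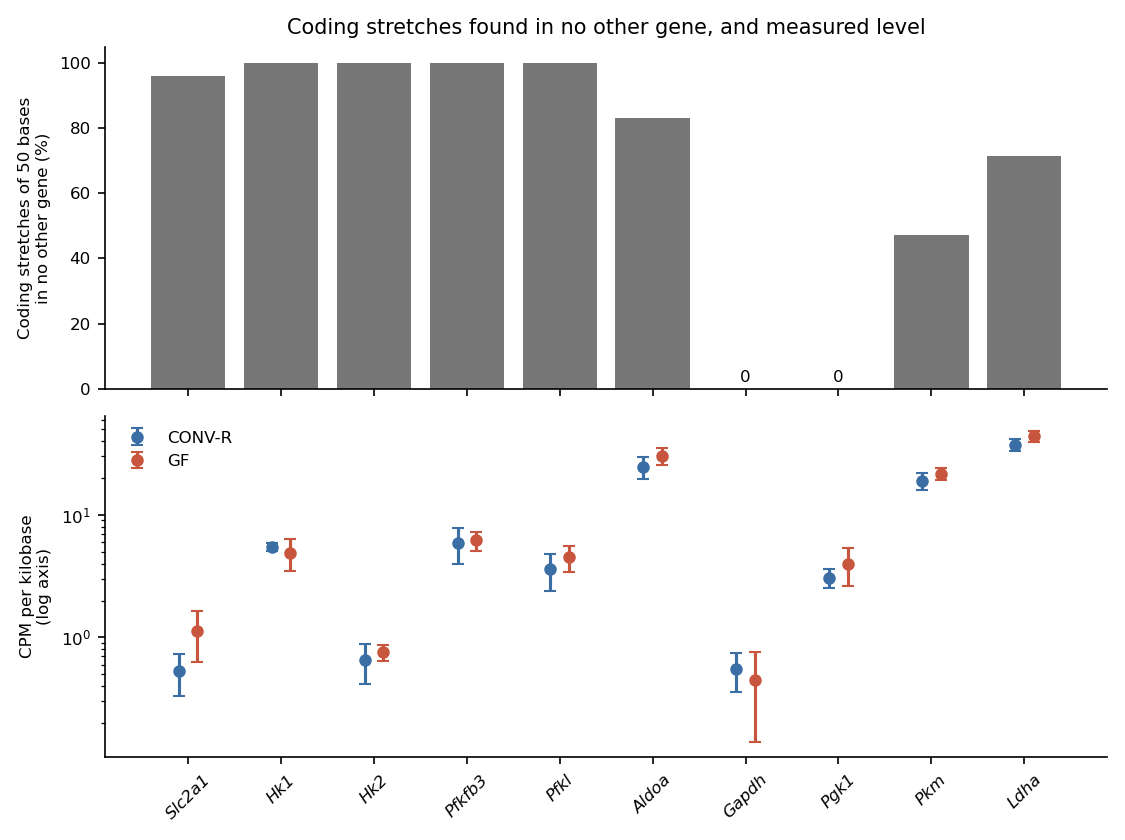
Upper panel: percent of the 50-base stretches in the coding sequence of each gene that are found in no other annotated gene. Lower panel: level as CPM per kilobase of exons on a log axis, mean and SD of 6 CONV-R and 5 GF mice; *Gapdh* and *Pgk1* have 0% such stretches, and *Gapdh* lies with *Slc2a1* and *Hk2* at the bottom of the scale.

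Levels of different genes can be compared only per length. As CPM per kilobase of all annotated exons in CONV-R mice, *Ldha* was highest at 37.4 ± 3.91 (SD, n = 6), followed by *Aldoa* at 24.6 ± 4.83 and *Pkm* at 18.9 ± 3.04. *Pfkfb3* (5.87 ± 1.91), *Hk1* (5.45 ± 0.392), *Pfkl* (3.59 ± 1.21) and *Pgk1* (3.07 ± 0.528) formed a middle range. *Hk2* (0.65 ± 0.23), *Gapdh* (0.55 ± 0.195) and *Slc2a1* (0.533 ± 0.199) were lowest. The annotated exons of *Gapdh* cover 4133 bases, but its protein-coding transcripts hold only 1943 different stretches of 50 bases. For *Hk2* these numbers were 5969 and 5918, and for *Slc2a1* 3506 and 3596. The place of *Gapdh* among these 3 genes therefore depends on the length chosen. The SD ranges across mice overlapped for the neighbours *Aldoa* and *Pkm*, *Pfkfb3* and *Hk1*, *Pfkl* and *Pgk1*, and for the lowest 3 genes. In GF mice *Slc2a1* stood above *Hk2* and *Gapdh*, at 1.14 ± 0.499 (SD, n = 5) against 0.753 ± 0.117 and 0.451 ± 0.31 CPM per kilobase, and the SD ranges across mice overlapped. All genes were measured in the same mice, and their order within each mouse was not compared in either group. Overlapping SD ranges therefore do not show that 2 genes have equal levels.

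None of the 10 genes passed the edgeR quasi-likelihood test for a difference between GF and CONV-R mice at an adjusted p under 0.05, beside 965 of the 12905 tested genes (7.48%). Of all tested genes, 4.80% were called higher and 2.67% lower in GF mice. All 10 genes had enough counts for the test. At an unadjusted p under 0.05 it gave 2 of the 10 genes, *Slc2a1* and *Aldoa*, beside 2968 of all tested genes (23.0%). DESeq2, which called 9.93% of its 15460 genes, called 1 of the 10, *Slc2a1*, and limma voom called 0. The Log2FC of GF over CONV-R was positive for 8 of the 10 genes and negative for *Hk1* and *Gapdh*. Its median over the 10 genes was 0.22, beside -0.01 over all tested genes, of which 49.1% were positive. The groups overlapped for all 10 genes, while 5.59% of the tested genes had groups that did not overlap. In bulk RNA of sorted cells, fewer cells of a type and less RNA per cell cannot be told apart.

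**Figure D2:**
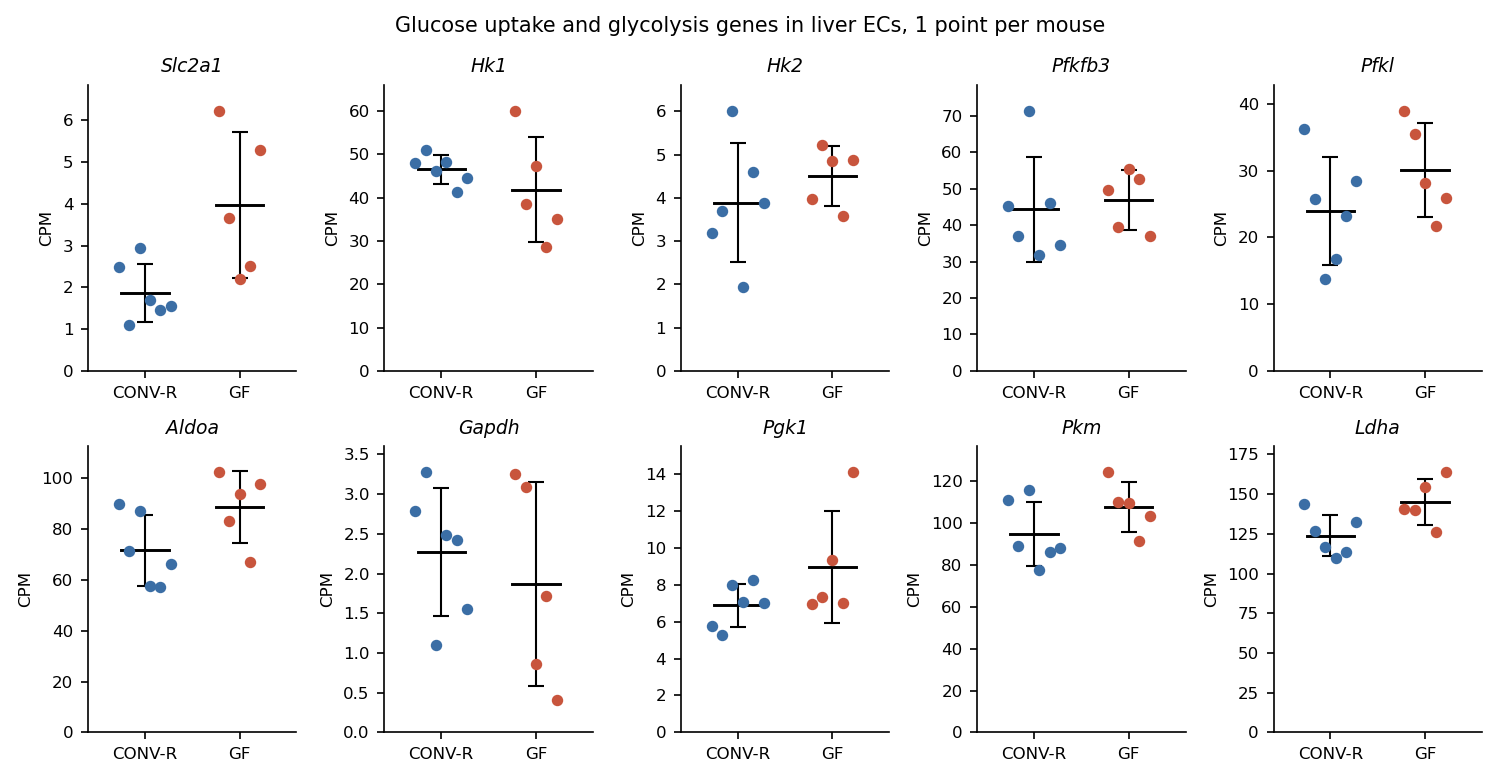
CPM of each gene of glucose uptake and glycolysis in the 6 CONV-R and 5 GF mice, 1 point per mouse, with the mean and SD in black and every axis starting at 0. The groups overlap in each panel; 3 GF mice lie above all CONV-R mice for *Slc2a1* and 2 GF mice lie below all CONV-R mice for *Gapdh*.

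*Slc2a1* (ENSMUSG00000028645, chr4:119108711-119137983, plus strand) encodes GLUT1, the carrier through which glucose enters most ECs. It was a weak signal here, with 16 to 96 counts per library. Its level was 1.09 to 2.95 CPM in CONV-R mice (median 1.62) and 6.24, 3.67, 2.19, 2.51 and 5.29 CPM in GF mice 1, 2, 4, 5 and 6. GF mice 1, 2 and 6 lay above every CONV-R mouse, whereas GF mice 4 and 5 lay within the CONV-R range. The Kupffer cell marker sums were 279.5, 354.3 and 911.6 CPM in GF mice 1, 2 and 6 and 192.8 and 208.9 CPM in GF mice 4 and 5. The orders differed elsewhere: *Slc2a1* was highest in GF mouse 1 and, among CONV-R mice, in mouse 3, with a marker sum of 90.85 CPM. The part of Kupffer cells in the *Slc2a1* values was not tested. The *Slc2a1* means were 1.87 ± 0.699 (SD, n = 6) and 3.98 ± 1.75 CPM (SD, n = 5). The Log2FC was 1.11 ± 0.38 (SE), a fold of 2.15 with a 95% interval of 1.24 to 3.75, and it did not pass the test over all genes (adjusted p = 0.0872). DESeq2 put the same comparison past the threshold (Log2FC = 1.12, adjusted p = 0.0402). With each mouse left out in turn the Log2FC ran from 0.87, without GF mouse 1, to 1.27, and the adjusted p from 0.0576 to 0.248.

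The hexokinases phosphorylate glucose and so keep it in the cell. *Hk1* (ENSMUSG00000037012, chr10:62268855-62379908, minus strand) is the form found in most tissues. Its level was 41.3 to 51.0 CPM in CONV-R mice (median 47.1) and 60.1, 38.4, 47.2, 28.6 and 35.0 CPM in GF mice 1, 2, 4, 5 and 6. GF mouse 1 lay above and GF mice 2, 5 and 6 below all CONV-R mice, so that the GF values were spread more widely (SD 12.2 against 3.35 CPM). The Log2FC was -0.15 ± 0.16 (SE, adjusted p = 0.638), and it was -0.32 without GF mouse 1, -0.04 without GF mouse 5 and -0.09 without GF mouse 6. *Hk2* (ENSMUSG00000000628, chr6:82725025-82774454, minus strand), the form that insulin and low oxygen are known to induce, had only 24 to 61 counts per library. Its CONV-R values of 1.93 to 6.02 CPM, with a median of 3.78, enclosed the GF values of 3.96, 5.22, 4.86, 3.57 and 4.88 CPM (Log2FC = 0.22 ± 0.30, adjusted p = 0.713). The 95% interval of the *Hk2* fold was 0.753 to 1.80, and its Log2FC was 0.08 without CONV-R mouse 4 and 0.38 without CONV-R mouse 3.

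The balance of these hexokinases can be read within a library, where scaling has no effect. *Hk2* made up 7.73 ± 2.76% (SD, n = 6) of the *Hk1* and *Hk2* counts in CONV-R mice and 10.2 ± 2.5% (SD, n = 5) in GF mice, and *Hk1* made up the rest. The CONV-R values ran from 3.85% to 11.5% and the GF values from 6.19% to 12.2%, so that the groups overlapped. The difference of 2.43 percentage points did not pass when all 462 splits of the mice were compared (exact permutation test, two-sided, p = 0.169). It is a share of counts, which does not take account of the unequal lengths of the transcripts.

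*Pfkfb3* (ENSMUSG00000026773, chr2:11471433-11554077, minus strand) makes the sugar phosphate that switches phosphofructokinase on. Its level was 31.8 to 71.5 CPM in CONV-R mice (median 41.2) and 49.8, 39.6, 55.4, 52.8 and 36.9 CPM in GF mice 1, 2, 4, 5 and 6. All GF mice lay within the CONV-R range, the top of which was CONV-R mouse 3 (Log2FC = 0.08 ± 0.19, adjusted p = 0.840). Without CONV-R mouse 3 the Log2FC was 0.27 and the adjusted p 0.293, and without CONV-R mouse 4 the Log2FC was 0.00083. *Pfkl* (ENSMUSG00000020277, chr10:77986947-78010083, minus strand), the liver-type subunit of phosphofructokinase, measured 13.8 to 36.1 CPM in CONV-R mice (median 24.4) and 39.0, 35.5, 28.2, 21.7 and 25.9 CPM in the GF mice in the same order. Only GF mouse 1 exceeded all CONV-R mice (Log2FC = 0.33 ± 0.22, adjusted p = 0.410), and the Log2FC was 0.21 without that mouse or without CONV-R mouse 3. It was 0.48 without CONV-R mouse 1 (adjusted p = 0.183) and 0.42 without GF mouse 5 (adjusted p = 0.262).

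In the lower pathway, *Aldoa* (ENSMUSG00000030695, chr7:126795234-126800751, minus strand) encodes the aldolase that splits the doubly phosphorylated sugar. Its level was 57.3 to 89.7 CPM in CONV-R mice (median 68.7) and 102.4, 83.0, 93.8, 66.9 and 97.5 CPM in GF mice 1, 2, 4, 5 and 6. GF mice 1, 4 and 6 lay above every CONV-R mouse. The Log2FC of 0.31 ± 0.15 (SE) had an interval of 1.00 to 1.54 on the fold scale and an adjusted p of 0.216. *Pkm* (ENSMUSG00000032294, chr9:59656368-59679375, plus strand), the pyruvate kinase of non-hepatocyte tissues, measured 77.8 to 116.0 CPM in CONV-R mice (median 88.7) and 124.5, 110.1, 109.7, 91.4 and 103.4 CPM in the GF mice in the same order. A single GF mouse, number 1, exceeded all CONV-R mice (Log2FC = 0.19 ± 0.13, adjusted p = 0.395). Other annotated genes overlapped 15.3% of the exon bases of *Pkm*.

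*Gapdh* (ENSMUSG00000057666, chr6:125161715-125166467, minus strand), the dehydrogenase often used as a reference gene in PCR, had only 36, 48, 9, 31, 30 and 20 counts in CONV-R mice 1 to 6 and 50, 32, 9, 13 and 3 counts in GF mice 1, 2, 4, 5 and 6. This amounted to 1.105 to 3.28 CPM in CONV-R mice (median 2.46) and to 3.25, 3.09, 0.857, 1.72 and 0.407 CPM in the GF mice. GF mice 4 and 6 lay below all CONV-R mice, the others within their range. The Log2FC of -0.26 ± 0.48 (SE, adjusted p = 0.793) had the widest interval of the 10 genes on the log2 scale, -1.27 to 0.74, which is a fold of 0.415 to 1.67. With 1 mouse left out the Log2FC ran from -0.57, without GF mouse 1, to -0.03, without GF mouse 6. As every coding stretch of *Gapdh* is shared, the limit on shared reads given above applies to these counts.

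*Pgk1* (ENSMUSG00000062070, chrX:106187100-106203699, plus strand) encodes the kinase of the step that first returns ATP. Its level was 5.26 to 8.24 CPM in CONV-R mice (median 7.03) and 6.95, 7.34, 9.33, 7.01 and 14.1 CPM in GF mice 1, 2, 4, 5 and 6. GF mice 4 and 6 lay above the CONV-R range and the other 3 within it. The Log2FC was 0.38 ± 0.24 (SE, adjusted p = 0.364), and it was 0.16 without GF mouse 6. Its coding stretches are all shared as well.

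*Ldha* (ENSMUSG00000063229, chr7:46841475-46855627, plus strand), which encodes the lactate dehydrogenase subunit that favours lactate formation, was the most abundant of the 10 genes in CPM and per length. Its level was 110.0 to 143.9 CPM in CONV-R mice (median 121.6) and 140.4, 139.8, 154.6, 126.3 and 163.8 CPM in GF mice 1, 2, 4, 5 and 6. GF mice 4 and 6 lay above the CONV-R range. The means of 123.9 ± 12.9 (SD, n = 6) and 145.0 ± 14.6 CPM (SD, n = 5) differed by a Log2FC of 0.23 ± 0.11 (SE, adjusted p = 0.219). The interval of its fold, 1.00 to 1.37, was the narrowest of the 10 genes on either scale.

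**Figure D3:**
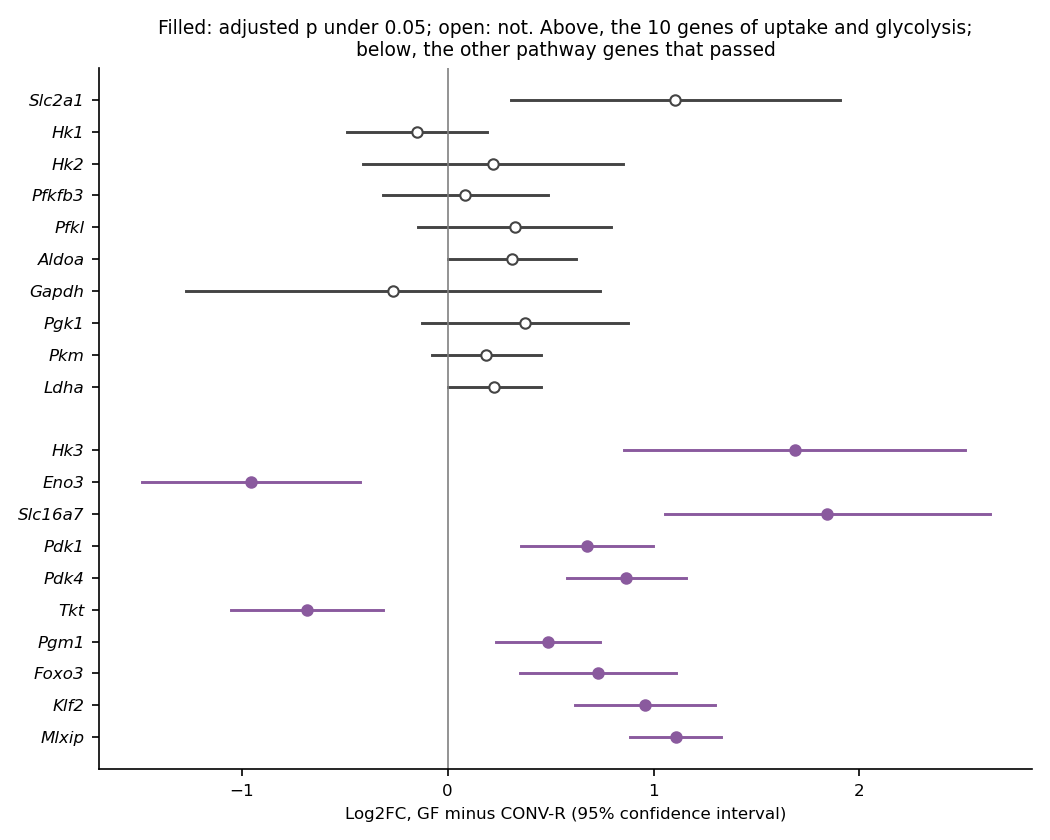
Log2FC of GF over CONV-R mice from edgeR with 95% intervals that are not adjusted for the number of genes, for the 10 genes of uptake and glycolysis and for the 10 other pathway genes that passed the test. Open points did not pass at an adjusted p under 0.05 and filled points did; on this log2 axis the interval of *Gapdh* is the widest of the upper group and that of *Ldha* the narrowest.

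The neighbouring pathways were read from 5 lists with 97 further genes of glucose metabolism, of which 80 could be tested. Of these, 10 passed the test (12.5%, beside 7.48% of all tested genes), 8 higher and 2 lower in GF mice. They comprised 3 genes of pyruvate and lactate fate, 3 regulators, 2 other glycolytic enzymes and 2 genes of the side branches, *Tkt* and *Pgm1*, with 0 among the other glucose carriers. The groups did not overlap for 5 of the 80 (6.25%, beside 5.59%). The median Log2FC of the 80 genes was 0.11, beside -0.01 over all genes.

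Genes that decide the fate of pyruvate gave 3 calls among 18 tested genes, all higher in GF mice (16.7%, beside 4.80% of all tested genes called higher). *Pdk4* and *Pdk1* encode kinases that switch off pyruvate dehydrogenase and so keep pyruvate out of the mitochondrial cycle. *Pdk4* (chr6:5483351-5496309) measured 54.1 to 96.8 CPM in CONV-R mice (median 88.8) and 166.7, 152.6, 167.0, 129.0 and 149.3 CPM in GF mice 1, 2, 4, 5 and 6. All 5 GF values exceeded all CONV-R values (Log2FC = 0.87 ± 0.14, adjusted p = 0.000917). *Pdk1* (chr2:71873224-71903858) measured 32.4 to 49.8 CPM in CONV-R mice (median 40.4) and 73.9, 78.2, 47.9, 71.4 and 51.7 CPM in the GF mice, of which 4 lay above all CONV-R mice (Log2FC = 0.68 ± 0.15, adjusted p = 0.0116). *Slc16a7* (chr10:125219270-125389465), a carrier of lactate and pyruvate, was weakly expressed but separated the groups, with 0.819 to 1.94 CPM in CONV-R mice and 3.57, 3.48, 3.52, 2.91 and 6.92 CPM in GF mice (Log2FC = 1.84 ± 0.37, adjusted p = 0.00591). *Slc16a7* was highest in CONV-R mouse 1 and GF mouse 6, which also had the highest Kupffer cell marker sums of their groups (223.6 and 911.6 CPM). GF mice 4 and 5, with marker sums of 192.8 and 208.9 CPM below that of CONV-R mouse 1, had *Slc16a7* values above it, and the part of Kupffer cells in the result was not tested. The lowest value of this list was that of the mitochondrial pyruvate carrier subunit *Mpc1* (Log2FC = -0.23 ± 0.37, adjusted p = 0.765). With 1 mouse left out the *Mpc1* Log2FC ran from -0.37 to -0.06. The calls of *Pdk1*, *Pdk4* and *Slc16a7* held in all 11 fits that left out 1 mouse each.

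**Figure D4:**
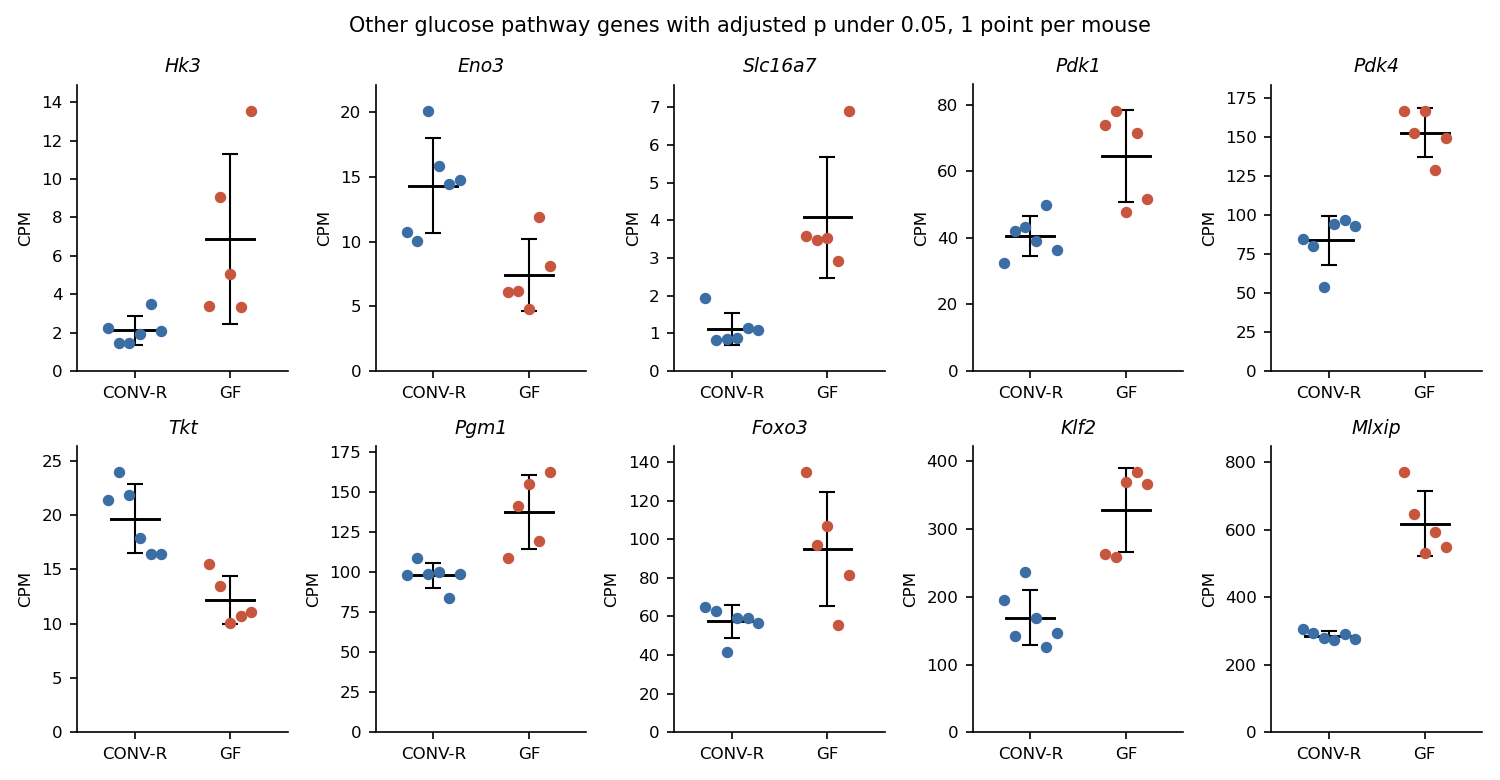
CPM of the 10 other glucose pathway genes with an adjusted p under 0.05 in the 6 CONV-R and 5 GF mice, 1 point per mouse, with the mean and SD in black and every axis starting at 0. The groups are apart for *Slc16a7*, *Pdk4*, *Tkt*, *Klf2* and *Mlxip* and overlap for the other 5 genes.

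Among 17 tested regulators of glycolysis, 3 were higher (17.6%, beside 4.80% of all tested genes) and 0 lower (beside 2.67%) in GF mice, and 15 had a positive Log2FC (88.2%, beside 49.1%). *Mlxip* (chr5:123394798-123457932) encodes MondoA, a transcription factor that senses glucose phosphate. It measured 274.5 to 305.4 CPM in CONV-R mice (median 286.5) and 771.6, 647.1, 530.4, 594.0 and 548.1 CPM in GF mice 1, 2, 4, 5 and 6. Every GF value exceeded every CONV-R value (Log2FC = 1.11 ± 0.11, adjusted p = 5.91e-06). *Klf2* (chr8:72319033-72321656), a transcription factor that blood flow induces in ECs, measured 125.6 to 236.1 CPM in CONV-R mice (median 157.3) and 263.5, 258.0, 368.9, 383.5 and 366.5 CPM in GF mice, again without overlap (Log2FC = 0.96 ± 0.16, adjusted p = 0.0015). *Foxo3* (chr10:42181841-42276755), a factor that insulin signalling holds out of the nucleus, measured 41.5 to 64.9 CPM in CONV-R mice (median 59.3) and 134.8, 96.8, 106.7, 55.4 and 81.7 CPM in GF mice. GF mouse 5 lay within the CONV-R range, and the call (Log2FC = 0.73 ± 0.18, adjusted p = 0.0199) was lost without GF mouse 1 (adjusted p = 0.0614). *Arrdc4*, a known target gene of MondoA, had the lowest value of the list (Log2FC = -0.66 ± 0.26, adjusted p = 0.132). Its Log2FC was -0.92 without GF mouse 4 (adjusted p = 0.0340, past the threshold) and -0.42 without CONV-R mouse 3 (adjusted p = 0.246). *Txnip*, another known target of MondoA on the list, had a value of opposite sign that did not pass either (Log2FC = 0.34 ± 0.11, adjusted p = 0.0791); without GF mouse 5 it was 0.40 (adjusted p = 0.0311).

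Of the 18 other glycolytic enzymes tested, 1 was higher and 1 lower in GF mice (11.1% called, beside 7.48% of all tested genes). *Hk3* (chr13:55005985-55021385) encodes a hexokinase known from myeloid cells. It measured 1.43 to 3.47 CPM in CONV-R mice (median 2.01) and 3.38, 9.08, 5.05, 3.31 and 13.6 CPM in GF mice 1, 2, 4, 5 and 6 (Log2FC = 1.69 ± 0.39, adjusted p = 0.0141). The summed Kupffer cell markers were highest in the same GF mice, at 911.6 CPM in GF mouse 6 and 354.3 CPM in GF mouse 2. In the other mice the orders differed: GF mouse 4 had the lowest GF marker sum (192.8 CPM) and more *Hk3* than GF mice 1 and 5, and among CONV-R mice *Hk3* was highest in mouse 5 (marker sum 129.6 CPM) while the marker sum was highest in mouse 1 (223.6 CPM, *Hk3* at 2.25 CPM). Of the 10 Kupffer cell markers, 6 were higher in GF mice and 4, *Cd5l*, *C1qa*, *Marco* and *Cd68*, did not pass (adjusted p = 0.0539, 0.202, 0.284 and 0.414), and the part of these cells in the *Hk3* result was not tested. Without GF mouse 6 the *Hk3* Log2FC was 1.29 and the adjusted p 0.0577. The muscle-type enolase *Eno3* (chr11:70657202-70662513) measured 10.04 to 20.1 CPM in CONV-R mice (median 14.6) and 6.11, 6.18, 4.76, 11.9 and 8.14 CPM in GF mice. GF mice 1, 2, 4 and 6 lay below all CONV-R mice (Log2FC = -0.96 ± 0.25, adjusted p = 0.0273). The call was lost in 6 fits that left out 1 mouse: CONV-R mouse 4 (adjusted p = 0.0646), 5 (0.0521) or 6 (0.0531), or GF mouse 1 (0.0675), 2 (0.0634) or 4 (0.0616).

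**Figure D5:**
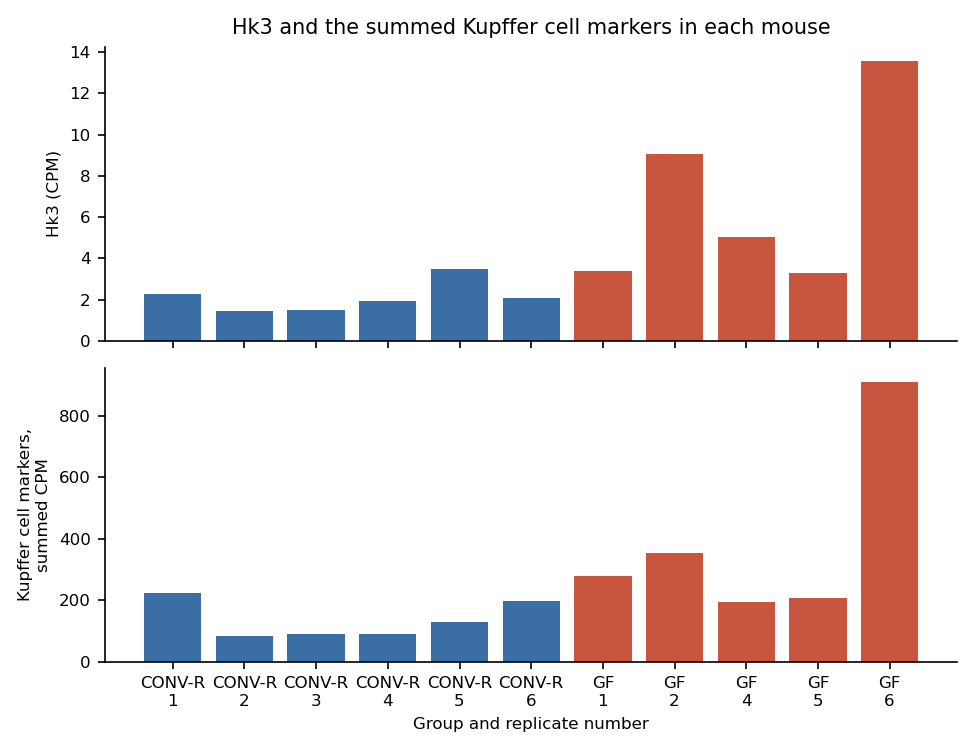
*Hk3* in CPM (upper panel) and the summed CPM of the 10 Kupffer cell markers (lower panel) in each of the 6 CONV-R and 5 GF mice, as bars from 0. GF mice 6 and 2 have the highest bars in both panels, at 13.6 and 9.08 CPM of *Hk3*.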

How the data were processed

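Liver ECs of 6 CONV-R and 5 GF mice were compared, grouped by the treatment label. The authors trimmed the 50-base reads, aligned them with STAR to the GRCm38 genome and counted genes with featureCounts; 1 GF library with few mapped reads was dropped by them. They deposited raw counts, which were tested here, and log2 values normalized across libraries, which served as an alternative. The labels name a TruSeq preparation and the study's methods an amplification kit; the strand setting and annotation release of the counting are not given in the sources used here.

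Counts were filtered with filterByExpr, scaled by TMM and tested with edgeR 4.0.16 (quasi-likelihood test, no covariate) in R 4.3.3, with Benjamini-Hochberg adjustment over 12905 genes and a threshold of 0.05. SE is the Log2FC divided by the root of F. Precision is limited by 5 or 6 mice per group and, for weak genes, by counting error. Alternatives were DESeq2 size factors, DESeq2 1.42.0, limma 3.58.1 (voom, and on the log2 values), no filter, at least 10 counts in every library, a replicate block, the libraries of that block without it, and each mouse left out. Leaving out CONV-R mouse 3 and GF mouse 2 together was added after the data were seen. The procedures were tested on simulated data. The genes, lists and tests were chosen with earlier results of these data known. Named are the 10 genes, every listed pathway gene that passed, the highest and lowest Log2FC of each list, and 3 sorting markers; *Cd5l*, *C1qa*, *Marco*, *Cd68*, *Txnip*, *G6pc3* and *Slc5a1* were named after their values were seen. Lengths, positions and shared stretches came from GENCODE M21, and promoter windows from RefSeq (GRCm38.p6). A planned search of shared stretches in the whole genome was replaced by the annotated transcripts; only exact matches, on either strand, were counted. Of the listed pathway genes, *Pgk2* was not found in the table. A further example stretch is not reported here.

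Same-numbered mice of the groups are different animals. Plots were drawn with matplotlib 3.10.9.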

Additional observations from a re-analysis of the deposited data

Results flagged for a closer look

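In 5 of 52 sets of values per group, 1 mouse lay far from the others by Dixon's ratio of its gap to the whole range; chance flags about 1 in 20 sets. *Pfkfb3* reached 71.5 CPM in CONV-R mouse 3, the next CONV-R value being 46.0 CPM. *Foxo3* was lowest in the same mouse, at 41.5 CPM against 56.5 CPM in the next. *Slc16a7* measured 1.94 CPM in CONV-R mouse 1, above 1.13 CPM in the next, and 6.92 CPM in GF mouse 6, above 3.57 CPM in the next; these mice had the highest Kupffer cell marker sums of their groups, 223.6 and 911.6 CPM. *Arrdc4* reached 67.4 CPM in 1 CONV-R mouse, with 37.7 CPM in the next. No cause of these values was tested.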

How the results depend on the processing

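Over 189 refits of the 10 genes, none changed sign and 1 changed its call (*Slc2a1* under DESeq2); of 277 refits of the other genes that the rule names, none changed sign, 17 lost a call and 4 gained one. The count of called genes was 965 with edgeR and 1535 with DESeq2, and ran from 622 (without GF mouse 6; 625 without CONV-R mouse 4) to 1260 (without GF mouse 5) with 1 mouse left out. Among the 10 genes, DESeq2 called 1 and the other alternatives 0. Other pathway genes numbered 10, 7 to 14 with 1 mouse left out (7 without GF mouse 6), and 7 without CONV-R mouse 3 and GF mouse 2, where *Hk3* (adjusted p = 0.0556), *Eno3* (0.0894) and *Foxo3* (0.0533) were lost. Without the filter, *Slc2a2* (adjusted p = 0.0125) and *Arrdc4* (0.0447) passed.

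Same-numbered mice did not deviate together (correlations from -0.01 to 0.20, and 2 of 5 correlated best with their own number), so the numbers were not taken as pairs. The block leaves out CONV-R mouse 3, whose number no GF mouse has, so its libraries without the block term are those without that mouse and were counted once. With the replicate block, 1101 genes, 0 of the 10 and 10 pathway genes were called, *Slc2a1* had a Log2FC of 1.21 (adjusted p = 0.0725), 9 of the 10 pathway calls were kept, *Hk3* lost its call (adjusted p = 0.0516) and *G6pc3*, a phosphatase named after its values were seen, gained one (adjusted p = 0.0368). *G6pc3* also passed without the block once CONV-R mouse 3 was left out (adjusted p = 0.0384) and with DESeq2 (0.0370), against 0.0737 in all mice with edgeR. The *Hk2* share differed by 3.19 percentage points in the block (two-sided exact sign-flip test, p = 0.125, where 0.0625 is the smallest possible) and by 1.66 to 3.43 points with 1 mouse left out. *Slc2a1*, *Hk2* and *Gapdh* had at most 96, 61 and 50 counts in any library.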

Other observations

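The side branches of glycolysis gave 1 higher and 1 lower gene among 21 tested (9.52% called, beside 7.48% of all tested genes). *Tkt* (chr14:30548359-30574720), the transketolase of the pentose phosphate pathway, measured 16.4 to 24.0 CPM in CONV-R mice (median 19.7) and 15.5, 13.5, 10.1, 10.7 and 11.1 CPM in GF mice 1, 2, 4, 5 and 6. All GF mice lay below all CONV-R mice (Log2FC = -0.68 ± 0.17, adjusted p = 0.0240), but the adjusted p was 0.0623 without CONV-R mouse 2, 0.0552 without GF mouse 4 and 0.0589 without GF mouse 6. A phosphoglucomutase was higher, with 84.2 to 108.6 CPM in CONV-R mice (median 98.7) and 108.6, 141.3, 155.2, 119.4 and 162.5 CPM in GF mice (Log2FC = 0.49 ± 0.12, adjusted p = 0.0194). The count table names it *Pgm1* (ENSMUSG00000029171, chr5:64092950-64128351), whereas GENCODE M21 calls the same identifier *Pgm2*. Its adjusted p was 0.0529 without CONV-R mouse 5 and 0.0626 without GF mouse 6. *Pck1*, an enzyme of glucose synthesis known from hepatocytes, had the highest value of the list and did not pass (Log2FC = 1.21 ± 0.53, adjusted p = 0.183).

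Of the other glucose carriers, 6 of 12 could be tested and 0 passed the edgeR test, while 1 had an unadjusted p under 0.05. This was *Slc2a2* (chr3:28697903-28731359), which encodes GLUT2, the glucose carrier of hepatocytes. It measured at most 1.47 CPM in CONV-R mice (median 0.363) and 0.397 to 6.24 CPM in GF mice with a median of 2.51 (Log2FC = 2.60 ± 0.83, adjusted p = 0.0650). With 1 mouse left out it was tested in 9 fits and passed in 1, without GF mouse 5 (Log2FC = 2.88, adjusted p = 0.0364). Over these 9 fits the Log2FC was 2.23 or more and the adjusted p reached 0.166. *Slc5a1*, a sodium-coupled glucose carrier, had too few counts for the edgeR test (0 to 20 per library). Its groups did not overlap, with 0 to 0.646 CPM in CONV-R and 0.661 to 1.74 CPM in GF mice. DESeq2 called it (Log2FC = 2.51, adjusted p = 0.0105). It entered the edgeR fit without GF mouse 5 (adjusted p = 0.0221), where fewer libraries had to reach the filter and only GF libraries reached it. That edgeR call is therefore no separate support for a difference. The hepatocyte marker sums of the groups overlapped, as given in the report, and their part in the *Slc2a2* and *Pck1* values was not tested. The lowest carrier was *Slc2a10* (Log2FC = -0.51 ± 0.55, adjusted p = 0.629). With 1 mouse left out its Log2FC ran from -0.72 to -0.21.

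RefSeq promoter windows of 300 bases (250 before and 50 after the start, both strands searched) were found for all 10 genes, 16 windows in total. The letters ACGTG, the core of the hypoxia response element, were in 11 of the 16 windows (68.8%), which belong to 9 of the 10 genes, beside 19.6% of all 32851 windows. GCGTG, its other form, was in 7 windows (43.8%, beside 32.4%). The E-box CACGTG, which contains ACGTG, was in 2 windows, those of *Pfkfb3* and *Ldha* (12.5%, beside 7.15%), and the GC box GGGCGG in 10 (62.5%, beside 35.7%). Windows of the same gene can overlap. The matches are letters in a window and were not tested for use in these cells.

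The 10 genes together took 355.4 to 488.4 CPM in CONV-R mice (median 411.3) and 402.3 to 536.5 CPM in GF mice (median 487.2).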
